A study of Homo sapiens with 28 samples.

Results

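The nuclear genes for subunits of respiratory chain complexes I to IV were followed on microarrays of neuroblastoma cells in which MYCN was switched on. Members were chosen by symbol alone, as genes named NDUFA, NDUFB, NDUFC, NDUFS or NDUFV with a number, SDHA to SDHD, UQCR genes and COX4 to COX8 genes, read by a probe set that names 1 gene. The rule matched 62 of 19775 genes with such a probe set. Of these, 58 code for subunits: 32 of complex I, 3 of complex II, 6 of complex III and 17 of complex IV. The other 4 match in name only and were set aside: the antisense transcripts NDUFB2-AS1 and NDUFV2-AS1, the divergent transcript NDUFV1-DT and the pseudogene COX6A1P1.

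The respiratory chain sits in the inner mitochondrial membrane. Complex I takes electrons from NADH and complex II from succinate, both pass them to ubiquinone, complex III hands them to cytochrome c, and complex IV, cytochrome c oxidase, delivers them to oxygen. Complexes I, III and IV pump protons as they work, and the gradient drives ATP synthase. All subunits of complex II and most subunits of the others are coded in the nucleus, while some core subunits of complexes I, III and IV are coded in mitochondrial DNA. MYC family proteins are known to act on many nuclear genes of mitochondrial biogenesis and metabolism.

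The cells derive from SK-N-AS, an established neuroblastoma line, and were cultured in DMEM and 10% fetal calf serum. In the MYCN line (SK-N-AS-tet, MYCN), doxycycline added to the medium induces a MYCN transgene. It was measured at times 0, 4, 8, 24, 48, 96 and 192 after doxycycline, in 3 replicates each (21 arrays), and the unit of time is not stated in the labels. The mock line (SKNAS-pcDNA6TR), whose name is that of a tet repressor vector and whose times also count from doxycycline, was measured once at each of the 7 times. Neither the promoter details of the transgene nor the number of clones behind a line is given in the labels, and whether replicates were grown apart is not stated either. The p-values therefore cover the scatter of these arrays only, and that scatter may be technical.

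The values are deposited Affymetrix signals, an intensity on a linear scale. A change is the log2 difference from time 0, given with its standard error (SE). A gene was called when its limma p, adjusted by Benjamini-Hochberg over all 11865 genes bright enough to test, was under 0.05. Induction was seen on the arrays, since MYCN read 84 ± 17.5 (SD, n = 3) at time 0. It read 2168 ± 820 at time 4 and 3193 ± 112 at time 192, against 1.6 to 3 in the mock line. The labels name no batch, but the spiked control bioD split the arrays into replicates 1 and 2 (batch 1) and replicate 3 with all mock arrays (batch 2): it read 1558 to 1945 and 2231 to 2548, and the array medians were 12.9 to 14.4 and 15.1 to 20.2. All 7 mesenchymal-type neuroblastoma markers were above the filter level (mean signals 220 to 5443), and so were 4 of 6 noradrenergic ones (PHOX2A, HAND2, GATA3 and ISL1), 0 of 2 Schwann cell markers and, at mean signals of at most 101, 4 of 10 markers of leukocytes, endothelial, erythroid and epithelial cells. The part of these markers in the results was not tested.

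Most subunit genes were strongly expressed. Of the 58, 54 passed the filter at a signal of 12.8, and 52 of these had a mean signal above 200, from 232 for NDUFA7 to 4450 for COX6A1. The median of the mean signals was 1109 for complex I, 686 for complex II, 1688 for complex III and 2374 for complex IV. Signals of different probe sets depend on the probes as well as on the RNA, so these medians describe brightness on the array and do not rank amounts of RNA. Since bright genes scatter less, the 5166 tested genes with a mean signal above 200 are given beside all genes as a second background.

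Promoter sequences are shown first, since several transcription factors are known for this gene family: NRF1, the nuclear respiratory factor, ETS family proteins such as the GABP complex, and the MYC family itself, which binds the E-box. RefSeq promoter windows (GRCh38.p14, 250 bases before to 50 after the start of the gene) were found for 51 of the 58 members. Each was searched on both strands for the E-box CACGTG, the ETS core CCGGAAG, the NRF1 consensus motif of 10 letters and the box CCAAT. No motif contains another, and overlapping matches were counted separately. The 5 stretches that follow run from 200 bases before the start to the base before it, 5′ to 3′ on the strand of the gene, with the matches in capitals. SDHA, SDHD and UQCRC1 were picked as members described in detail that hold an NRF1 match, UQCR11 for its several matches and NDUFS7 for an E-box in complex I. The stretch of SDHA lies at chr5:218120-218319, plus strand, SDHD at chr11:112086673-112086872, plus strand, UQCRC1 at chr3:48609647-48609846, minus strand, UQCR11 at chr19:1605463-1605662, minus strand and NDUFS7 at chr19:1383707-1383906, plus strand.
SDHA: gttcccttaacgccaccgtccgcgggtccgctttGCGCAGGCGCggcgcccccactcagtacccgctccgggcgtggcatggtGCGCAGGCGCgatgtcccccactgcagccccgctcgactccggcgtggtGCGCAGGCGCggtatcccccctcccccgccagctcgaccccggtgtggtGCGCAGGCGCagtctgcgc
SDHD: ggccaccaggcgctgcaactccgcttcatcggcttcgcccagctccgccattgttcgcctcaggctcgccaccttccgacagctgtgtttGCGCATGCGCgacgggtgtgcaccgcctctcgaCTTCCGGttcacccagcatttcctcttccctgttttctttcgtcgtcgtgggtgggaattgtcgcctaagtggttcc
UQCRC1: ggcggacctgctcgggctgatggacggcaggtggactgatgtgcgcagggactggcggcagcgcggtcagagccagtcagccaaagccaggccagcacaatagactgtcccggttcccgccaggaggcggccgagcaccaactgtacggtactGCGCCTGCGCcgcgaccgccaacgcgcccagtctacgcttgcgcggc
UQCR11: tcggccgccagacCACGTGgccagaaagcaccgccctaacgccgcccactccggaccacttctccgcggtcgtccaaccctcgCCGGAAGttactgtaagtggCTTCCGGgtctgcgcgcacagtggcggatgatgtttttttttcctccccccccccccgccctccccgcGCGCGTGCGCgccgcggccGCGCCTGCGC
NDUFS7: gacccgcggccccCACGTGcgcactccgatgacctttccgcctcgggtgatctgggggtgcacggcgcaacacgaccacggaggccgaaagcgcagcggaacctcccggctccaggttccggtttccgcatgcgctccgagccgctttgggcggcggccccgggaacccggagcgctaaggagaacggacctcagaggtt

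In the SDHA stretch all 4 capital runs are the NRF1 motif, with the nearest 19 bases before the start. SDHD holds 1 NRF1 match and 1 ETS match, UQCRC1 a single NRF1 match, UQCR11 an E-box, 2 ETS and 2 NRF1 matches, and NDUFS7 a single E-box. Over all members the NRF1 motif was present in 12 of 51 promoters (23.5%), against 6.28% of all 27305 promoters and 12.1% of the 9731 promoters of genes tested here. The ETS core was present in 25.5%, against 10.7% and 19.6%, and CCAAT in 33.3%, against 35.7% and 37%. The E-box was present in 4 members (7.84%), namely NDUFS7, NDUFA11, NDUFA7 and UQCR11, against 7.43% of all promoters and 10.5% of those of tested genes. Among members that were ever called higher the NRF1 motif was present in 5 of 17 promoters and the E-box in 1 of 17; among members never called the counts were 6 of 29 and 3 of 29. A match is a run of letters and no evidence of binding.

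In the MYCN line, changes of the subunit genes were small, late and mostly upward. At times 4 and 8 none of the 54 members was called by limma, and 2 and 5 had an unadjusted p under 0.05. So had 778 and 1187 of the 11865 genes tested, and 357 and 627 of the 5166 bright genes. The number of called members was also 0 at both times under each alternative run. Of all genes, 0.00843% and 0.767% were called at these times (0.59% higher and 0.177% lower at time 8), and of genes with a signal above 200, 0.0194% and 1.14% (0.852% higher and 0.29% lower).

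At time 24, 5 members had risen and 1 had fallen, which is 11.1% of those tested. Of all genes 7.18% were called (3.91% higher and 3.27% lower), and of the bright genes 9.47% (6.08% higher and 3.39% lower). At time 48, 13 had risen and 1 had fallen (25.9%), against 14.7% of all genes (7.04% higher, 7.67% lower) and 19.2% of the bright ones (11.1% and 8.05%).

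At time 96, 16 had risen and 2 had fallen (33.3%), against 23.4% of all genes (10.3% higher, 13.2% lower) and 29.3% of the bright ones (15.6% and 13.7%). At time 192 the counts were 15 and 2 (31.5%), against 25.8% of all genes (11.6% higher, 14.1% lower) and 31.8% of the bright ones (17.1% and 14.8%). The share of members called lay near that of the bright genes and is no result about the members. Most of the called members were higher at each of these times, where the background was split more evenly.

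The size of these changes stayed under 1.5-fold throughout. The 49 rises called over the 6 times lay between 0.19 and 0.48 (1.14-fold to 1.39-fold), and the 6 falls between -0.46 and -0.29. In all 55 calls the 3 arrays lay entirely above or entirely below the 3 of time 0. Since the calls were made on these same arrays, that separation is no further support for them. Over the course 18 members were higher at 1 time or more, 2 were lower (NDUFA2 and NDUFA13), and 34 were never called. The matching shares of all genes and of the bright genes were not counted, so these counts are no result about the members. An F test over all 6 times called 19 of the 54, and 25.4% of all genes, and its share of the bright genes was not counted. The 3 arrays also lay wholly above those of time 0 for 4, 5, 18, 20, 21 and 18 members at the 6 times. Among all genes the shares were 4.14%, 7.25%, 12%, 12.3%, 15.7% and 16.5%, and among the members 7.41%, 9.26%, 33.3%, 37%, 38.9% and 33.3%. Among the bright genes they were 5.94%, 9.14%, 17.7%, 17.3%, 22% and 22.1%, level with the members at time 8. They lay wholly below for 1, 3, 1, 3, 3 and 4 members, against 7.28%, 8.82%, 14.9%, 15%, 19.4% and 19.6% of all genes and 5.75%, 8.46%, 13.2%, 13.9%, 18.3% and 18.8% of the bright ones.

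The median over members rose only slightly. It was 0.02, 0.03, 0.10, 0.12, 0.12 and 0.10 at the 6 times, while the median over all genes lay between -0.03 and -0.02. The median over the bright genes was 0.01, -0.002, 0.02, 0.03, 0.02 and 0.02. The mock line moved about as far, with each of its changes taken from its 1 array of time 0. Its single arrays gave member medians of 0.10, 0.15, 0.12, 0.08, 0.12 and 0.03. The mock medians over all genes lay between -0.02 and 0.03, and those over the bright genes between -0.07 and 0.03. Above time 0 at time 24 were 42 of 54 members in the mock line (50.2% of all genes, 55.4% of the bright ones). In the MYCN line they were 44 of 54 (46.3% and 54.1%). At time 4 the counts were 43 in the mock line (47.1% and 57.1%) and 31 in the MYCN line (44.4% and 53.9%). The members' medians of the mock arrays were thus at or above those of the MYCN line at times 4, 8, 24 and 96, and lower at times 48 and 192.

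**Figure D1:**
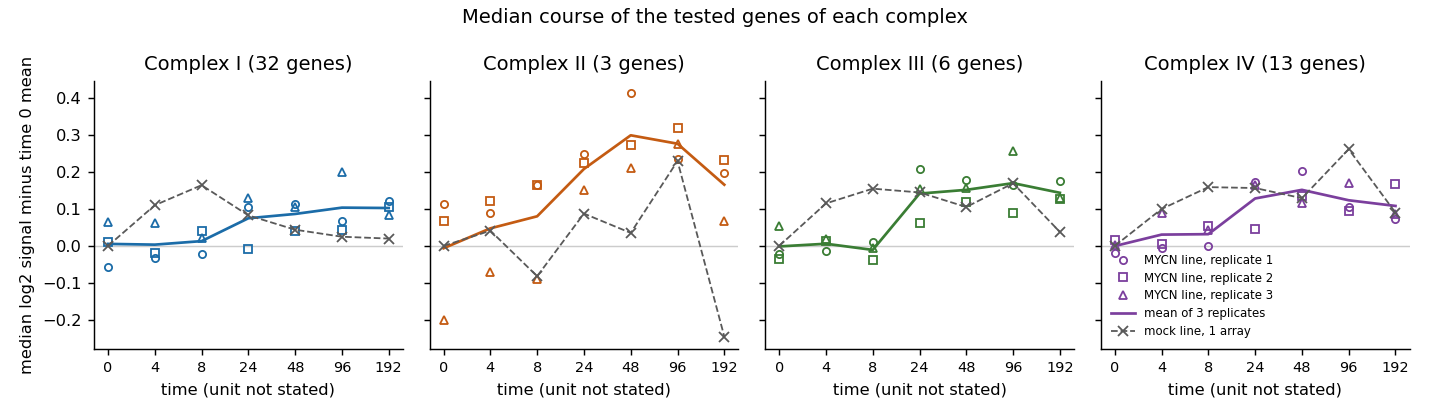
Median log2 signal of the tested genes of each complex, minus the mean of time 0 of the same line, by time (unit not stated). Open symbols are the 3 replicates of the MYCN line, the solid line their mean, and crosses with a dashed line the single mock arrays; in complex I the MYCN arrays of time 192 lie at 0.08 to 0.12, and the mock array peaks at 0.16 at time 8.

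By complex, 7 of 32 complex I genes had risen and 2 had fallen at time 192, while 1 of 3 complex II genes, 3 of 6 complex III genes and 4 of 13 complex IV genes had risen. The share called was 28.1% in complex I, 33.3% in complex II, 50% in complex III and 30.8% in complex IV, against 25.8% of all genes and 31.8% of the bright ones. With the replicate number as a block, a pairing accepted at time 192, the counts were 12, 2, 4 and 6 and 35.1% of all genes were called. The block added SDHD, COX5B, COX7A2L, NDUFA9, NDUFC1 and NDUFS6 upward and UQCRQ downward, and without it no gene of complexes II to IV was called lower. The median change was 0.08, 0.25, 0.13 and 0.14. The mock array of time 192 gave 0.02, -0.25, 0.04 and 0.09. The order of the lines was not the same at other times. At time 96 the medians were 0.11, 0.28, 0.12 and 0.11, and the mock array gave 0.02, 0.23, 0.17 and 0.26. At time 24 they were 0.07, 0.09, 0.16 and 0.13, and the mock array gave 0.08, 0.09, 0.14 and 0.16. With 3 to 32 tested genes per complex these figures describe the genes, and a difference between complexes was not tested.

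**Figure D2:**
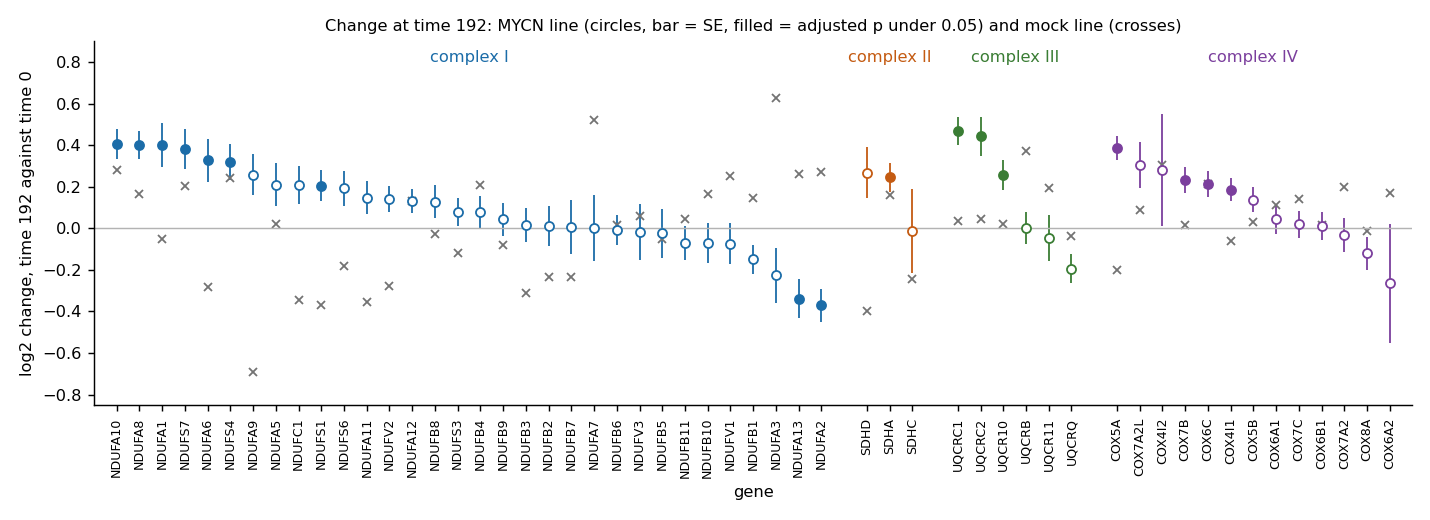
Log2 change of the 54 tested members at time 192 against time 0, ordered by size within each complex. Circles are the MYCN line with the SE of the limma fit (3 arrays against 3), filled where the adjusted p was under 0.05, and crosses are the single mock array; called changes run from -0.37 for NDUFA2 to 0.47 for UQCRC1.

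These counts moved with the scaling of the arrays. When all arrays were brought to the same median signal, the called members were 0, 0, 4 (2 higher and 2 lower) and 5 (all higher) at times 24, 48, 96 and 192. The members' median change was then 0.15, 0.17, 0.15 and 0.13, against 0.02, 0.02, 0.0037 and -0.00042 over all genes. Calls over all genes dropped as well, to 2.48%, 6.92%, 13.2% and 15.9%, and at each of these times a smaller share of the members than of all genes was called. Without replicate 1 the counts were 0, 0, 11 and 7 (1.64%, 3.03%, 12.2% and 13% of all genes), and without replicate 2 they were 0, 0, 4 and 7 (1.38%, 2.03%, 6.63% and 11.2%). At time 24 it was 2 without replicate 3. Leaving out single arrays gave 3 without replicate 3 of time 0, and 1 and 3 without replicates 1 and 2 of time 24. At time 48 the count was 9, 8 and 9 without the arrays of replicates 1, 2 and 3 at time 0, and 7 and 6 without those of replicates 1 and 2 at time 48. The shares of all genes without replicate 3 or without single arrays are not given here, so those counts are no result about the members. With the replicate number as a block, 11 and 23 members were called at times 24 and 48, and 14.9% and 23.9% of all genes.

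Complex I is the largest complex, with catalytic core subunits and many accessory subunits around them. NDUFA8, an accessory subunit on the side of the intermembrane space, gave 993, 1003 and 974 at time 0 in replicates 1 to 3. It gave 1348, 1227 and 1272 at time 24 and 1397, 1275 and 1251 at time 192. The arrays from time 24 on all lay above those of time 0, while those of times 4 and 8 overlapped with them. The rise was 0.37 (SE 0.07, limma adjusted p = 0.0017) at time 24 and 0.40 (SE 0.07, adjusted p = 0.000217) at time 192. In the mock line the signal was 827 at time 0 and 875 to 957 afterwards.

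NDUFA10, an accessory subunit of the membrane arm, gave 832, 784 and 874 at time 0. The arrays read 1001, 994 and 1025 at time 24, then 1224, 1062 and 1024 at 192. Its rise was 0.28 (SE 0.07) at time 24 and 0.41 (limma adjusted p = 0.000358) at time 192, with groups apart at both times. The call at time 24 ended in 4 of 10 other settings and in 8 of 9 runs with arrays left out. That at time 192 ended with equal array medians and with the probe sets averaged. The mock array was at 707 at time 0, at 642 to 667 from time 4 to 96 and at 858 at time 192, a mock change of 0.28 at the last time. The difference in slope between the lines, described further on, was not called for NDUFA10.

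Both falling members belong to complex I. NDUFA2, an accessory subunit of the NADH-binding module, gave 1196, 1302 and 1324 at time 0. Its signals were 1014, 1007 and 1098 at time 24, then 931, 854 and 986 at 96, then 893, 1068 and 1000 at 192. All arrays from time 8 on lay below all arrays of time 0. The fall passed the test at times 24 (-0.29), 48 (-0.33), 96 (-0.46, SE 0.08, limma adjusted p = 0.000317) and 192 (-0.37). The call at time 24 ended in 4 of 10 other settings, turned in sign in 1, and ended in 7 of 9 runs with arrays left out. Without _s_at and _x_at probe sets NDUFA2 is read by a dim one (mean signal 17.8) that gave 0.33 at time 24. In the mock line the signal moved the other way, from 1113 at time 0 to 1372 at time 96 and 1344 at time 192.

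NDUFA13, also known as GRIM-19, gave 1588, 1552 and 1871 at time 0. Values of 1182, 1164 and 1348 followed at time 96, then 1359, 1256 and 1336 at 192. At times 24 and 48 its arrays still overlapped with time 0, and at times 96 and 192 they lay below. The change was -0.44 (SE 0.09, limma adjusted p = 0.00199) at time 96 and -0.34 (adjusted p = 0.0102) at time 192. The call at time 96 held under each alternative run; that at time 192 ended with equal array medians and when replicate 1, replicate 2 or the time 0 array of replicate 3 was left out. The mock signal was 1809 at time 0 and 2171 at time 192.

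**Figure D3:**
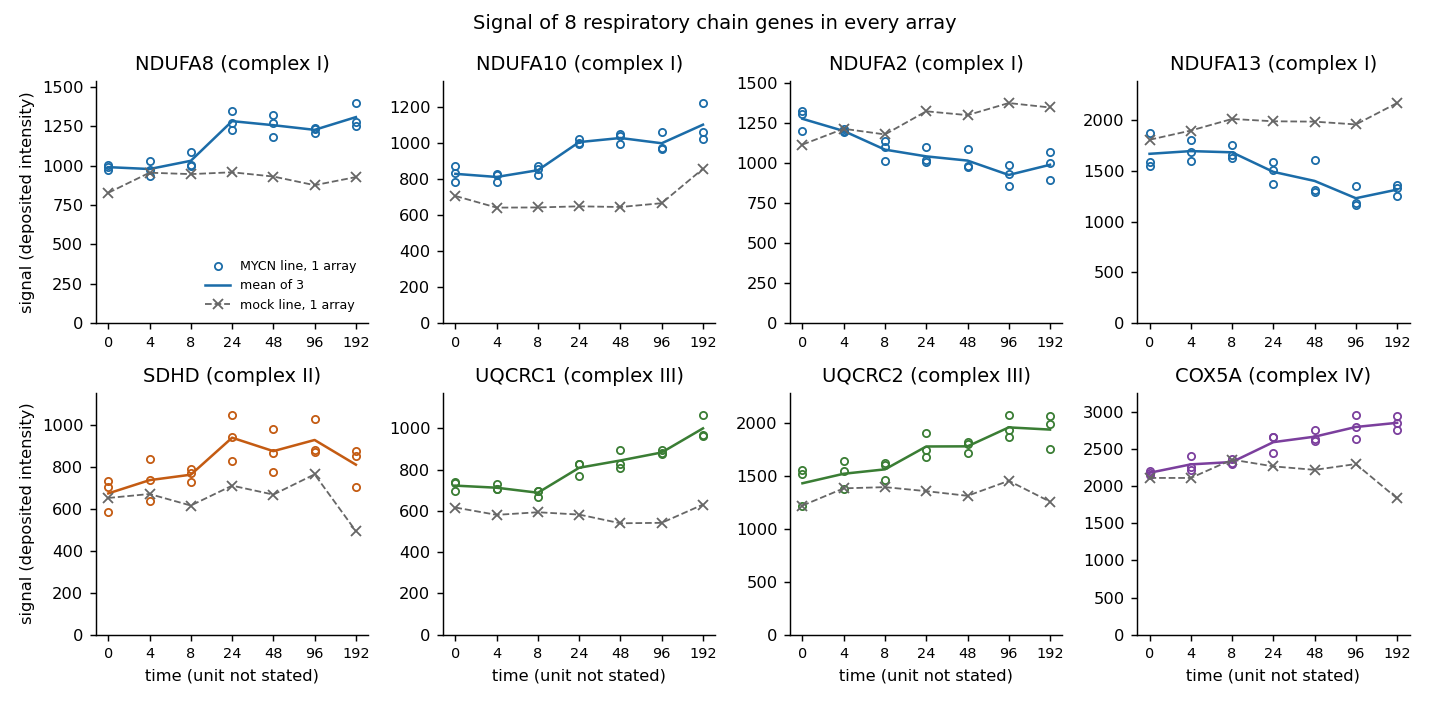
Deposited signal of 8 members in all 28 arrays by time (unit not stated). Open circles are single arrays of the MYCN line, the solid line their mean of 3, and crosses the single mock arrays; NDUFA2 and NDUFA13 go down in the MYCN line and up in the mock line, while UQCRC1 reaches 965 to 1067 in the MYCN line at time 192, with the mock array at 631.

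Of the core subunits of complex I, NDUFS1, NDUFS3, NDUFS7, NDUFV1 and NDUFV2 could be read. NDUFS1, which carries iron-sulfur clusters, rose by 0.23 (SE 0.07, limma adjusted p = 0.0285) at time 96 and by 0.21 (adjusted p = 0.0474) at time 192, from 575, 637 and 601 to 691, 737 and 662. Its call at time 96 ended in 5 of 10 other settings and in 7 of 9 runs with arrays left out. That at time 192 ended in 7 of 10 and 7 of 9. With its probe sets averaged the value at time 96 was -0.043. The mock signal of NDUFS1 went the other way, from 602 to 466. NDUFS7 and NDUFV2, which also hold iron-sulfur clusters and are named here after their values were seen, rose by 0.38 (SE 0.09) at time 192 and by 0.24 (SE 0.06) at time 96. NDUFV1, which binds NADH, was not called at any time, with a change of -0.21 (SE 0.10) at time 96 and -0.07 at time 192. NDUFS3 was likewise never called.

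Among the other accessory subunits, NDUFA1 gave 1524, 1725 and 1913 at time 0. The arrays read 2227, 2344 and 2596 at time 96, then 2343, 2344 and 2101 at 192. It rose by 0.48 (SE 0.11, limma adjusted p = 0.00304) and 0.40 (adjusted p = 0.00885). The mock signal of NDUFA1 was 2673 at time 0 and 2577 at time 192. NDUFA6 rose by 0.33 (SE 0.10, adjusted p = 0.0252) at time 192, from 911, 900 and 1159 to 1214, 1242 and 1248. A second, dimmer NDUFA6 probe set (mean signal 161) gave -0.38 at time 192, so the probe sets of NDUFA6 disagreed. NDUFS4, an accessory subunit known from inherited complex I deficiency and named here after its values were seen, rose by 0.33 (SE 0.09) at time 96 and 0.32 at time 192. With the mean of its 2 probe sets, of which the other lay under the filter level, the value of NDUFS4 at time 192 was -0.039. Without the block the other 22 complex I genes were never called, and their changes at time 192 included 0.26 for NDUFA9 and -0.23 for NDUFA3.

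Complex II, or succinate dehydrogenase, is also an enzyme of the tricarboxylic acid cycle. SDHA is its flavoprotein, SDHC and SDHD anchor it in the membrane, and SDHB was not analysed here. SDHA gave 555, 579 and 615 at time 0. Its signals were 685, 727 and 705 at time 96, then 668, 684 and 719 at 192, with no overlap. It rose by 0.28 (SE 0.07, limma adjusted p = 0.00812) and 0.25 (adjusted p = 0.0152), and the mock signal was 426, 380 and 476 at the same times. SDHA is read by 1 probe set only, of the _x_at type, which can read related transcripts. Its call at time 96 ended in 2 of 9 other settings and in 2 of 9 runs with arrays left out. That at time 192 ended in 3 of 9 and 5 of 9.

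SDHD gave 736, 703 and 584 at time 0. Values of 1050, 943 and 828 followed at time 24, then 883, 874 and 1030 at 96, then 853, 879 and 703 at 192. Its arrays stood apart from time 0 at times 24, 48 and 96 and overlapped again at time 192. The rises of 0.48 (SE 0.12, limma adjusted p = 0.0211) at time 24, 0.38 at time 48 and 0.47 (adjusted p = 0.00971) at time 96 were called, and that of 0.27 at time 192 had an adjusted p of 0.122, and of 0.0398 with the replicate block. The mock signal was 653 at time 0, 765 at time 96 and 494 at time 192.

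With the mean of its 2 probe sets SDHD gave -0.064, -0.082 and -0.20 at times 24, 48 and 96. The other of these probe sets had a mean signal under the filter level.

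SDHC was lower in replicate 3 than in replicates 1 and 2 at each time. It gave 758, 799 and 567 at time 0 and 763, 763 and 572 at time 192, and its change was -0.01 (SE 0.20). The mock array, of the same batch as replicate 3, gave 577 at time 0.

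In complex III the pair of core proteins had the largest changes at time 192. UQCRC1 gave 695, 740 and 733 at time 0 and 897, 828 and 810 at time 48. It gave 878, 894 and 879 at time 96 and 1067, 965 and 970 at time 192. Each of these groups lay above time 0, and the 3 arrays of time 192 above all earlier ones. The rise was 0.22 (SE 0.07) at time 48, 0.29 at time 96 and 0.47 (limma adjusted p = 4.05e-05) at time 192, the largest of any member at that time, and the last call held under each alternative run. The mock signal of UQCRC1 was 617 at time 0, 540 at time 48 and 631 at time 192.

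UQCRC2 gave 1525, 1557 and 1218 at time 0. The arrays read 1934, 1870 and 2082 at time 96, then 2068, 1998 and 1758 at 192. It was called at times 24 (0.32), 48 (0.32), 96 (0.46, SE 0.09, limma adjusted p = 0.00145) and 192 (0.44, adjusted p = 0.00162), while the mock signal was 1222 at time 0 and 1259 at time 192. The call at time 24 ended in 4 of 10 other settings and in 7 of 9 runs with arrays left out. UQCR10, a small subunit, rose by 0.26, 0.25 and 0.26 (SE 0.07) at times 48, 96 and 192, from 1381, 1265 and 1257 to 1599, 1547 and 1520. UQCRQ, another small subunit, gave 2966, 3011 and 3265 at time 0 and 2693, 2765 and 2615 at time 192. The groups of UQCRQ did not overlap, but its change of -0.19 (SE 0.07) missed the threshold (limma adjusted p = 0.0505) and passed it with the replicate block (adjusted p = 0.00731). UQCRB and UQCR11 were not called at any time.

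In complex IV, COX5A, a subunit on the matrix side, gave 2154, 2207 and 2184 at time 0. Its signals were 2665, 2452 and 2667 at time 24, then 2636, 2796 and 2965 at 96, then 2762, 2858 and 2945 at 192. All arrays from time 4 on lay above those of time 0. COX5A was called from time 24 on, at 0.25, 0.29, 0.36 and 0.39 (SE 0.06, limma adjusted p = 6.45e-05 at time 192). The mock signal was 2112 at time 0, 2299 at time 96 and 1837 at time 192.

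COX7B, COX4I1 and COX6C, which surround the catalytic core, rose at times 48, 96 and 192. COX7B gave 2383, 2379 and 2575 at time 0 and 3026, 2878 and 2711 at time 192 (0.23, SE 0.06, limma adjusted p = 0.0096). COX4I1 gave 2089, 2034 and 2222 and then 2478, 2372 and 2365 (0.19, SE 0.06). COX6C gave 2991, 2832 and 2904 and 3419, 3351 and 3345 (0.21, SE 0.06). The mock changes of COX6C were larger at times 48 (0.45 against 0.20) and 96 (0.42 against 0.24), those of COX7B as large at times 48 and 96 (0.28 and 0.27), and that of COX4I1 was -0.06 at time 192. A dim COX4I1 probe set (mean signal 32.2) gave -0.087 at time 192, and a bright one (1673) 0.21. COX7A2L, known for its part in supercomplexes, rose at time 96 (0.33, SE 0.11, limma adjusted p = 0.0413), where its mock change was 0.26. That call ended in 5 of 10 other settings and in 7 of 9 runs with arrays left out. At time 192 the COX7A2L change of 0.31 had a limma adjusted p of 0.0510, and 0.00570 with the replicate block.

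Complex IV has tissue-restricted isoforms of several subunits, and in these cells the widely expressed form was the bright one in each pair. COX4I1 had a mean signal of 2330 and COX4I2 one of 25.7. COX6A1 stood at 4450 and COX6A2, the heart and skeletal muscle form, at 17.2. The testis forms COX6B2, COX7B2 and COX8C and the muscle form COX7A1 had mean signals of 9.4, 4.51, 1.05 and 1.57, under the filter level. Their partners COX6B1, COX7A2, COX7B and COX8A lay between 1746 and 3668 in all arrays of either line. The dim isoforms that could be tested were not called at any time: COX4I2 gave 23.2, 21.1 and 15.6 at time 0 and 18.6, 29.4 and 25.1 at time 192 (0.28, SE 0.27, limma adjusted p = 0.49). COX6A2 gave 19.4, 25.9 and 17.7 and then 15.4, 20.3 and 16.4 (-0.26, SE 0.29). Signals at this level are near background, and no direction is given for them. COX6B2 was at 1.4 to 18.3 in the MYCN line and at 15.7 to 32.8 in the mock line. Different probe sets are compared here only in the sense that one lies above and the other near or under the filter level.

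The course of each gene was then compared between the lines by a straight line on the order of the times. The slope is the log2 change per time step, and the test asks whether the slopes of both lines differ (28 arrays in 1 fit). In the mock line alone, limma called the slope of 0 of 54 members (3.13% of all genes). An unadjusted p under 0.05 was found for 8 members and for 2750 of the 11865 genes tested. Without the mock array of time 0 limma called 2 members, and with quantile normalization 1. The slopes of the lines differed for 15 members, 12 more upward and 3 more downward in the MYCN line, where 24% of all genes and 30.3% of those with a signal above 200 were called. Upward and downward differences made up 11.2% and 12.8% of all genes and 18.8% and 11.6% of the bright ones. For the mock slope alone the bright genes were called in 4.18% (1.41% upward, 2.77% downward) and all genes in 1.61% and 1.52%. The median difference in slope was 0.0259 over the members, 0.0141 over the bright genes and -0.0115 over all genes.

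Of the 15 members, 8 upward and all 3 downward ones belong to complex I, 2 to complex III (UQCRC1 and UQCRC2) and 2 to complex IV (COX5A and COX4I1). No complex II gene was called, with 0.0848 (SE 0.0391, limma adjusted p = 0.116) for SDHD and 0.0520 (adjusted p = 0.0894) for SDHA. The largest differences called upward were 0.132 for NDUFA9, 0.106 for NDUFA6, 0.0988 for NDUFA1, 0.0919 for NDUFS1 and 0.0912 for UQCRC1. Downward they were -0.117 for NDUFA2, -0.110 for NDUFA13 and -0.108 for NDUFA3. Limma did not call the values of the dim COX6A2 (-0.146, SE 0.0843, adjusted p = 0.219) and of NDUFV1 (-0.0741, SE 0.0301, adjusted p = 0.0720).

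The slopes behind these differences were of several kinds. For UQCRC1, UQCRC2, NDUFA8 and NDUFA1 the slope of the MYCN line was 0.0828, 0.0805, 0.0765 and 0.0883 and that of the mock line -0.0084, 0.0066, 0.0078 and -0.0105. For NDUFA9, NDUFS1 and NDUFS6 the mock slope (-0.105, -0.0612 and -0.0503) was larger in size than the MYCN slope (0.0267, 0.0308 and 0.0379). The mock signal of NDUFA9 was 677 at time 0 and 419 at time 192, and its MYCN signals were 484, 429 and 398 at time 0 and 574, 512 and 483 at time 192. NDUFA3 gave 331 and 512 in the mock line at those times, and 313, 393 and 299 and 255, 330 and 274 in the MYCN line, where it overlapped. NDUFA2 and NDUFA13 had slopes of -0.0700 and -0.0790 in the MYCN line and 0.0470 and 0.0308 in the mock line. NDUFS6 is named here after its slopes were seen.

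With 1 mock array per time, single arrays weigh heavily. Without the mock array of time 192, 6 members were called (4 upward and 2 downward). Of the 15, NDUFA2, NDUFA13, NDUFS1 and UQCRC1 were among them. Without the mock array of time 0, 22 were called. With equal array medians 9 differences were called, all upward. Within the second batch, which holds replicate 3 and the mock line, 10 were called, 7 upward and 3 downward, and 9 of the 15 calls held there. The calls of UQCRC1, NDUFA8, NDUFA1, NDUFA3, NDUFS6 and COX4I1 ended there. Shares of all genes called in these settings are not given here, so these counts are no result about the members.

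**Figure D4:**
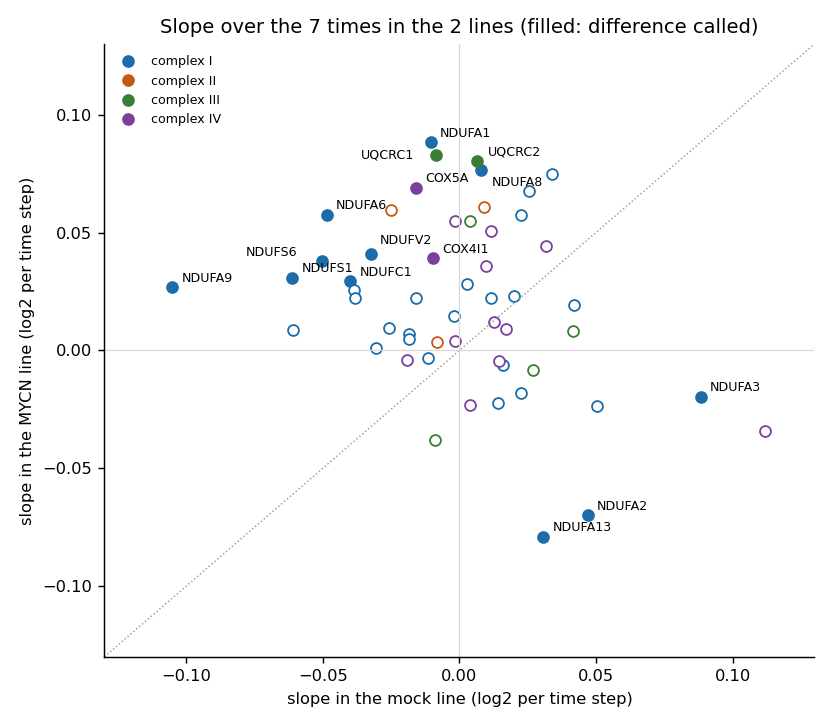
Slope over the 7 times (log2 per time step) of each of the 54 tested members in the mock line (horizontal, 7 arrays) and the MYCN line (vertical, 21 arrays). Filled and named points have a called difference between the lines, and the dotted line marks equal slopes; UQCRC1 lies at -0.0084 and 0.0828, NDUFA2 at 0.0470 and -0.0700.

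Genes that work with the complexes were read from lists chosen by function. Cytochrome c1 (CYC1), the complex III subunit whose symbol falls outside the rule, and cytochrome c (CYCS) both rose. CYC1 gave 1340, 1185 and 1313 at time 0 and 1860, 1626 and 1648 at time 192 (0.42, SE 0.07, limma adjusted p = 0.000194). CYCS went from 3451, 3070 and 3099 to 4293, 3822 and 3954 (0.33, adjusted p = 0.00203). Their mock signals went from 1169 to 1084 and from 3152 to 2589.

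Of 18 genes of ATP synthase, the enzyme that uses the proton gradient, 3 were higher and 1 lower at time 192 (median 0.05). That is 22.2% called, near the 25.8% of all genes, while 31.8% of the bright genes were called. ATP5MC1, a subunit of the membrane ring, rose from 589, 678 and 592 to 1091, 949 and 925 (0.67, SE 0.10, limma adjusted p = 8.33e-05), while its mock signal was 625 at time 0 and 425 at time 192. DMAC2L was called at time 48 alone (-0.45). Of the 16 complex I assembly factors 6 were higher and 1 was lower (median 0.22). The share called was 43.8%, against 25.8% of all genes and 31.8% of the bright ones. NDUFAF2 rose from 551, 519 and 515 to 886, 931 and 875 (0.76, SE 0.08), and ECSIT from 136, 137 and 146 to 247, 197 and 229 (0.68, SE 0.11). No complex I subunit had a change of that size at time 192, where the largest was 0.41 for NDUFA10.

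Of the assembly factors of complexes II to IV, 5 of 34 were higher and 3 lower at time 192 (median 0.07). That is 23.5% called, near the 25.8% of all genes, while 31.8% of the bright genes were called. COX20, which helps to mature a mitochondrially coded complex IV subunit, gave 681, 646 and 769 at time 0. Values of 322, 308 and 322 followed at time 24, then 286, 396 and 291 at 192. Its change was -1.13 (SE 0.17, limma adjusted p = 0.000331) at time 24 and -1.12 at time 192. The mock signal went from 510 to 566 and 379, and the slopes of the lines were not called different (adjusted p = 0.0756). LRPPRC, which stabilises mitochondrial messenger RNA, rose by 0.51 (SE 0.07) at time 192. Of 12 genes of the tricarboxylic acid cycle 3 were higher and 1 was lower (median 0.18). The share called was 33.3%, against the same 25.8% and near the 31.8% of the bright genes. IDH3A, of the NAD-dependent isocitrate dehydrogenase, rose from 544, 511 and 403 to 803, 867 and 624 (0.65, SE 0.16), and turned to -0.17 without _s_at and _x_at probe sets, a type that can read related transcripts. IDH2, the NADP-dependent mitochondrial enzyme, fell from 119, 200 and 171 to 44, 41 and 21 (-2.25, SE 0.42), and its mock signal went from 171 to 385.

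Of the regulators of mitochondrial biogenesis, 8 of 13 were higher at time 192 and 0 lower, with a median of 0.39 against -0.16 in the mock array. Of all genes 25.8% were called (11.6% higher), and of the bright ones 31.8% (17.1% higher). PPARGC1B, a coactivator of nuclear respiratory factors, was dim at 27, 26 and 38 at time 0 and reached 106, 95 and 131 at time 192 (1.88, SE 0.22, limma adjusted p = 6.69e-06), while the mock signal went from 20 to 41. POLRMT, the mitochondrial RNA polymerase, rose from 282, 281 and 341 to 563, 472 and 592 (0.85, SE 0.11), and the mock signal was 354 and 408. The 13 respiratory chain subunits coded in mitochondrial DNA were not analysed here.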

How the data were processed

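The authors deposited 1 table of single-colour intensity values, 54675 probe sets by 28 arrays. MAS5 and GCOS are the tools given per the submitters' processing notes, with versions not given in the sources used here. The mean after trimming 2% at either end was 100 in every array, and no further scaling was applied. Probe sets naming 1 gene (41091, by the platform annotation) were kept. Those naming several (1801) were not used, and 5 more subunit genes read only by these were not analysed here. Values at or under 0 (91) were set to 0.1, and log2 was taken. Each gene is represented by its brightest probe set; genes whose mean log2 signal reached the 40th percentile, 3.68, were tested.

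All fits used limma 3.58.1 in R 4.3.3 (lmFit and eBayes, mean-variance trend allowed), two-sided, with Benjamini-Hochberg adjustment over 11865 genes. They compared each time with time 0 over 21 arrays (14 residual degrees of freedom), fitted a slope in the 7 mock arrays (5) and tested the difference in slope over 28 (24). The scripts were tested on simulated data. Deviations of same-numbered replicates correlated above 0.1 in every pair at times 4 (0.188 to 0.323), 8 (0.241 to 0.367) and 192 (0.129 to 0.226), not at 24, 48 and 96 (lowest -0.0608, 0.0550 and -0.0248). Pairing by number was therefore accepted for the first 3 of these times only.

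Members, gene lists and motifs were chosen with earlier results of these data known, and the background of bright genes was added after the data were seen. Named genes were the SDH genes, the 4 members per complex with the smallest F-test p, the largest rise and fall per complex at time 192, the 5 most positive and 5 most negative differences in slope, tissue isoforms, and 2 genes per related list by F-test p. Alternatives covered scaling, an offset of 16, the filter, the choice of probe sets, blocks, batches and left-out arrays.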

Additional observations from a re-analysis of the deposited data

Results flagged for a closer look

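For 15 of the 54 tested members the slope over the time steps differed between the MYCN line and the mock line (limma adjusted p under 0.05). In the same test 24% of all genes and 30.3% of those with a signal above 200 were called. The count of members lay near these shares and is no result about the members. The differences, in log2 per time step, were 0.132 for NDUFA9, 0.106 for NDUFA6, 0.0988 for NDUFA1, 0.0919 for NDUFS1, 0.0912 for UQCRC1, 0.0882 for NDUFS6 and 0.0849 for COX5A. They were 0.0739 for UQCRC2, 0.0731 for NDUFV2, 0.0694 for NDUFC1, 0.0686 for NDUFA8 and 0.0488 for COX4I1. In the opposite direction they were -0.108 for NDUFA3, -0.110 for NDUFA13 and -0.117 for NDUFA2. The calls of NDUFA13, NDUFA2, NDUFS1 and UQCRC1 held without any 1 mock array or replicate number, but each ended under another alternative. Those of NDUFA13 and NDUFA2 ended with equal array medians, and those of NDUFA2 and NDUFS1 without _s_at and _x_at probe sets. That of UQCRC1 ended within the second batch. Each of the other 11 ended without the mock array of time 192, and some also without other arrays.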

How the results depend on the processing

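The numbers of called members at times 24, 48, 96 and 192 (6, 14, 18 and 17) were 0, 0, 4 and 5 with equal array medians. They were 3, 7, 9 and 7 when a gene's probe sets were averaged, and 2, 0, 9 and 9 with only the arrays of that time and time 0. At time 24 these last 2 settings called 4.37% and 6.03% of all genes. Without _s_at and _x_at probe sets the called members were 6, 11 and 9 at the last 3 times. The count at time 24 was 2 within batch 1 (5.53% of all genes), and that at time 48 was 22 with the batch as a block. Shares of all genes are not given here for every setting, so the counts of this section are no result about the members. A replicate block gave 11 and 23 at times 24 and 48, and 0, 0 and 24 at the paired times 4, 8 and 192. Leaving out arrays gave 0 to 0 at times 4 and 8, 0 to 5 at time 24, 0 to 16 at time 48, 4 to 17 at time 96, 7 to 18 at time 192, 0 to 2 for the mock slope and 6 to 22 for the difference in slope. The mock count was 1 with quantile normalization, and the difference in slope (15) was called for 9 with equal medians and for 9 without _s_at and _x_at probe sets. All 70 calls of members held with either block and with the offset of 16, and 62 did with quantile normalization. The members' median change at time 4 was -0.0083 with quantile normalization and -0.0094 without replicate 3 of that time, and at time 8 -0.008 without replicate 2. Of single genes, the following values had the opposite sign of the reported one; signs of changes called in neither setting were not compared. Averaged, COX4I1 gave -0.051 at time 96, -0.14 at time 192 and -0.088 in slope difference, NDUFA6 -0.027 at time 192, NDUFB2 0.45 at time 96, NDUFS1 -0.043 at time 96 and -0.0086 in slope difference, NDUFS4 -0.039 at time 192, POLRMT -0.051 in slope difference, and SDHD -0.064, -0.082 and -0.20 at times 24, 48 and 96. Without _s_at and _x_at probe sets COX4I1 gave -0.23, -0.83 and -0.087 at times 48, 96 and 192 and -0.054 in slope difference, IDH3A -0.28 and -0.17 at times 96 and 192, NDUFA2 0.33 and 0.14 at times 24 and 96, and NDUFA6 -0.38 at time 192 and -0.039 in slope difference. Counting NDUFA4 and NDUFA4L2 with complex IV was not run, since neither was analysed here. Of the 58 genes, 4 lie under the filter level, and COX4I2 and COX6A2 lie close to it. The further probe sets that enter the averages of NDUFS4 and SDHD also lie under that level.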

Other observations

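In 25 members with several probe sets above the filter level, 43 further probe sets could be set against the brightest. At time 192, 28 of them had the same sign of change and 15 the opposite sign. NDUFB2 is an example picked after its values were seen: the probe sets with mean signals of 2483 and 1325 gave 0.01 and 0.13 at time 192, and another with a mean signal of 13.7 gave 1.14. At time 0 the members were brighter in the MYCN line than in the mock line by a median of 0.08 (38 of 54), against -0.01 over all genes. With replicate 3 alone, of the same batch as the mock line, the median was 0.11 (34 of 54), against 0.03 over all genes.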
